A study of Mus musculus with 10 samples.

Results

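The cyclins, kinases and inhibitors that govern the G1 phase were measured by RNA sequencing in hematopoietic stem and progenitor cells of pre-leukemic mice with and without miR-126. The 10 members were taken by gene symbol from the 25078 genes of the count table: the D cyclins Ccnd1, Ccnd2 and Ccnd3, the E cyclin Ccne1, the kinases Cdk2, Cdk4 and Cdk6, and the inhibitors linked to quiescence, Cdkn1b, Cdkn1c and Cdkn2c. All 10 had counts in every library.

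Lin-Sca-1+c-Kit+ (LSK) cells, the marrow fraction that holds stem cells and multipotent progenitors, were sorted from the marrow of 5 CM and of 5 CM/miR-126Δ/Δ mice, 1 library being made from each animal. CM mice carried Cbfb 56M/+ with Mx1-Cre, which together switch on the Cbfb-MYH11 fusion of inv(16) leukemia. CM/miR-126Δ/Δ mice carried miR-126 flox/flox in addition. All 10 mice received poly(I:C) and were taken at the pre-leukemic stage, 6 weeks after that induction, and the lines had been backcrossed to C57BL/6. Both genotypes thus shared the fusion, the Cre and the treatment, and no library came from mice without the fusion. Mx1-Cre is driven by interferon and also recombines outside LSK cells, so miR-126 may have been lost in other cells of these mice. The labels give no age for single mice. The comparison asks what loss of miR-126 does to these transcripts in CM-expressing LSK cells.

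In G1, D cyclins bind CDK4 and CDK6, and cyclin E binds CDK2. Both kinase complexes phosphorylate the retinoblastoma protein, which frees E2F factors and commits the cell to DNA replication. INK4 proteins such as the product of Cdkn2c (p18) bind CDK4 and CDK6, while CIP/KIP proteins such as p27 (Cdkn1b) and p57 (Cdkn1c) act on cyclin-CDK complexes, and both families are known for holding hematopoietic stem cells in quiescence. Much of this control lies in protein turnover, phosphorylation and localization, which RNA levels do not show.

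The microRNA removed in these mice is shown first, because its seed is the sequence searched for in the members. Its bases 2 to 8, the seed, are in capitals (RefSeq, GRCm38.p6, chr2:26591402-26591423, plus strand).
mmu-miR-126a-3p: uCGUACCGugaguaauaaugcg
The complement of seed bases 2 to 7, GGTACG, and that of bases 2 to 8, CGGTACG, were sought on the sense strand of the longest 3′ untranslated region of each member in GENCODE M1. Neither was found in any of the 10, whose regions ran from 373 bases for Cdkn2c to 4556 bases for Ccnd2. Of 19915 mouse genes, 2.95% held the shorter match and 0.211% the longer one, which contains the shorter. For Cdk6 the annotated region was 2427 bases long while the exons counted in the files add up to 11522 bases, so only part of its end was searched. The absence of these letters says nothing about sites elsewhere or of another kind.

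The libraries were checked against their labels before any comparison. Mir126a, read from the precursor locus, had 4, 5, 0, 2 and 3 reads in CM mice 1 to 5 and 0 reads in each of the 5 CM/miR-126Δ/Δ mice. Counts this low do not measure the deletion, since mature microRNAs are too short for these libraries and CM mouse 3 also had none. The host gene Egfl7 had between 2145 and 4032 reads in the CM libraries and between 2360 and 3208 in the others.

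The sorted cells carried the defining LSK transcripts. Kit, the stem cell factor receptor, averaged 859 CPM in the CM group and 929 CPM in the CM/miR-126Δ/Δ group, and Ly6a, which encodes Sca-1, averaged 57.3 and 58.5 CPM. CPM are counts scaled to the size of each library, so that mice can be compared. Total counts ran from 23649233 in CM mouse 3 to 33202086 in CM mouse 1. At that depth 3 counts, taken as the limit of detection, correspond to at most 0.127 CPM, and every member lay above it in every mouse. CM mice 1, 2, 4 and 5 had 29221244 counts or more, and the CM/miR-126Δ/Δ mice 24141663 to 26615091. RNA concentration was 20.6 to 40.9 ng/µl in CM and 16.1 to 29.5 ng/µl in CM/miR-126Δ/Δ mice. Depth and RNA concentration thus went partly with genotype.

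Some libraries stood apart from the rest. CM mouse 3 had the lowest total count, and its level of Itgam, a gene of mature myeloid cells, was 133.5 CPM against 62.0 to 90.0 CPM in the 9 other mice. CM/miR-126Δ/Δ mouse 3 had the largest share of counts on the ribosomal locus Rn45s, 22.6% against 14.8% to 18.6% elsewhere. Among all 10, CM/miR-126Δ/Δ mouse 4 had the most transcript of the neutrophil genes S100a8, at 72.2 CPM against 0.479 to 27.6 CPM in the other 9 mice, and S100a9, at 109.3 CPM against 0.566 to 41.8 CPM, with CM mouse 5 the next highest for both. Same-numbered mice also shared their sex as read from Xist, the X-inactivation RNA, which was at 2467 CPM or more in mice 1 to 3 of both genotypes and at 0.706 CPM or less in mice 4 and 5. A fit that takes the replicate number as a block therefore compares mice of the same sex, and its values are given beside those of the genotype-only fit where they bear on a member.

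For none of these transcripts did the genotypes differ beyond the spread between mice. In edgeR's quasi-likelihood test, 0 of the 10 members had an unadjusted p under 0.05, whereas 6.61% of the 18747 genes tested did. With the replicate block the counts were 0 of 10 and 8.89%, and DESeq2 also gave 0 of 10. After Benjamini-Hochberg adjustment over all genes, 0 of 10 members and 0.0107% of all genes lay under 0.05. The cutoffs of the study, p of at most 0.01 with at least a 1.5-fold change and at least 1 RPKM, took 0 of 10 members and 0.288% of all genes. No member separated the genotypes completely, which 1.38% of the 11682 genes averaging at least 1 RPKM did. On the log2 scale 7 members were lower and 3 higher on average in CM/miR-126Δ/Δ mice, with a median difference of -0.06, against a median of -0.01 over all genes. Among the 11682 genes averaging at least 1 RPKM, as all 10 members do, the median was -0.02 and 57.5% were lower.

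These small averages are not proof that the genotypes are alike, and the intervals show what sizes the data still allow. For 8 of the 10 members the 95% interval of the fold difference lay within 1.5-fold in either direction, the widest bounds among these 8 being 0.807 and 1.22. Ccnd1 and Cdkn1c, which with Ccne1 had the fewest counts, had intervals that reached beyond 1.5-fold.

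**Figure D1:**
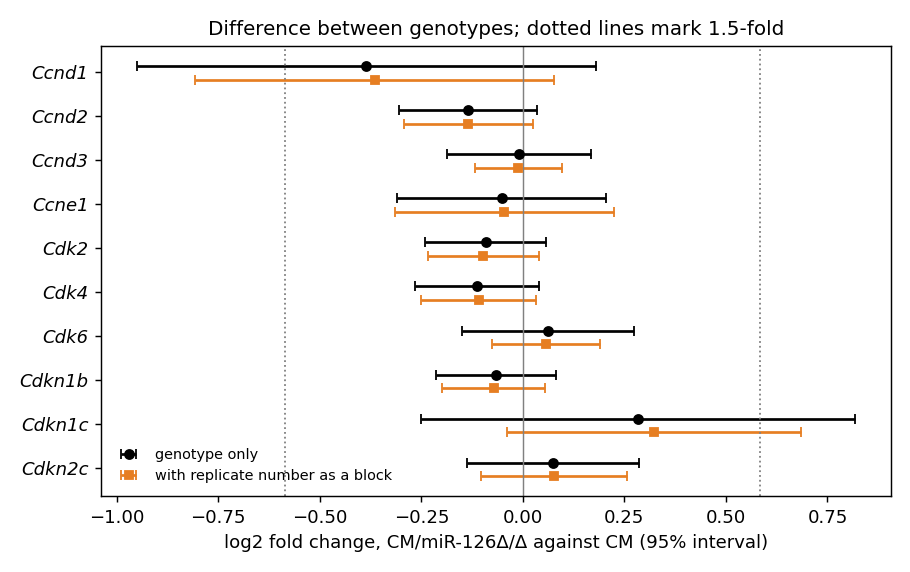
Log2 fold change of each member, CM/miR-126Δ/Δ against CM (horizontal axis), from the edgeR fit with genotype alone (black circles) and with replicate number added as a block (orange squares). Bars are 95% intervals, n = 5 mice per genotype, and dotted lines mark 1.5-fold. All 20 intervals include 0, and those of Ccnd1 and Cdkn1c are the widest.

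Levels per length differed far more between members than between genotypes. RPKM divide CPM by the exon length of the gene, so that genes can be compared with each other. Cdk4 averaged 212 RPKM over the 10 mice and Cdk6 181 RPKM, above 99.2% and 99.0% of the genes with a mean of at least 1 RPKM. Ccnd2 followed at 72.8 RPKM, then Cdk2 at 40.4 and Ccnd3 at 39.6 RPKM. Cdkn1b, at 27.3 RPKM, and Cdkn2c, at 16.7 RPKM, were intermediate. Ccne1 at 4.47 RPKM, Ccnd1 at 2.84 RPKM and Cdkn1c at 2.32 RPKM formed the lowest group, with Cdkn1c above only 11.3% of those genes.

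Parts of this order were fixed in every mouse and parts were not. Cdk6 exceeded Ccnd2 by 2.04-fold to 2.89-fold, Ccnd2 exceeded Cdk2, Ccnd3 exceeded Cdkn1b, Cdkn1b exceeded Cdkn2c, and Cdkn2c exceeded Ccne1 by 2.92-fold to 4.65-fold, each in 10 of 10 mice with ranges that did not overlap. Cdk4 lay above Cdk6 in 9 of 10 mice, Cdk2 above Ccnd3 in 6 of 10, Ccne1 above Ccnd1 in 9 of 10 and Ccnd1 above Cdkn1c in 8 of 10. Those 4 pairs had overlapping ranges, and their order was not tested.

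**Figure D2:**
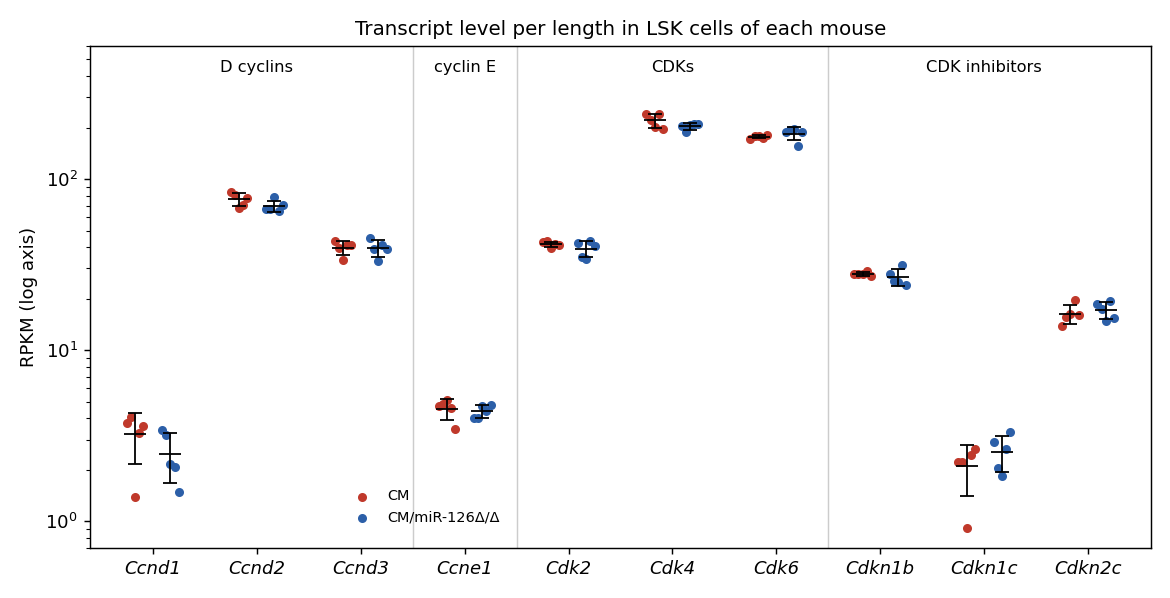
RPKM of each member (vertical log axis) in every mouse, CM in red and CM/miR-126Δ/Δ in blue, with mean and SD in black (n = 5 mice per genotype) and members grouped by role. Cdk4 and Cdk6 lie near 200 RPKM, Ccnd1, Ccne1 and Cdkn1c under 6 RPKM, and the 2 genotypes overlap for every member.

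Ccnd2 was the main D cyclin transcript (chr6:127125709-127151048, mm10). Ccnd2 was at 486, 464, 393, 407 and 448 CPM in CM mice 1 to 5, and at 387, 385, 452, 374 and 406 CPM in CM/miR-126Δ/Δ mice 1 to 5. CM mice 1 and 2 were the highest, followed by CM/miR-126Δ/Δ mouse 3. Of the 5 CM/miR-126Δ/Δ mice 2 fell within the CM range and 3 below it. The means were 439.7 ± 38.8 and 401 ± 31.1 CPM (SD, n = 5 each), a log2 difference of -0.13 (SE 0.0792, 95% interval of the fold 0.81 to 1.02). Ccnd2 was lower in 4 of 5 same-numbered pairs, and the difference did not pass the test (edgeR quasi-likelihood test with Benjamini-Hochberg adjustment, adjusted p = 0.765; with the replicate block, adjusted p = 0.655). The exact permutation test over all splits of the mice gave p = 0.0952, the exact paired permutation over the 5 pairs 0.25, and the unpaired test 0.0397 when the libraries were scaled by total counts alone. Likewise 2 settings brought the unadjusted edgeR p under 0.05: total counts alone, with a log2 difference of -0.15, and leaving out CM/miR-126Δ/Δ mouse 3, with -0.18. That mouse is the one with the largest Rn45s share, and its TMM factor, the library scaling used here, was the lowest of all at 0.922.

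Ccnd1, the D cyclin best known as a target of growth factor signalling, was scarce and varied the most between mice (chr7:144929931-144939925). Ccnd1 was at 14.3, 15.3, 5.28, 12.4 and 13.7 CPM in CM mice 1 to 5, and at 12.9, 12.1, 8.23, 7.92 and 5.64 CPM in CM/miR-126Δ/Δ mice 1 to 5. CM mice 1, 2, 4 and 5 lay near the top while CM mouse 3 was the lowest of all 10, and every CM/miR-126Δ/Δ mouse fell within the CM range. The means were 12.2 ± 4.01 and 9.35 ± 3.05 CPM (SD, n = 5 each), a log2 difference of -0.38 (SE 0.263, fold interval 0.518 to 1.13), and Ccnd1 was lower in 4 of 5 pairs. The test was not passed (edgeR adjusted p = 0.765; with the block, adjusted p = 0.659; exact permutation p = 0.333). The value depended on CM mouse 3: without it the log2 difference was -0.56, with an unadjusted edgeR p under 0.05 and an adjusted p of 0.481. Without CM/miR-126Δ/Δ mouse 5 it was -0.25.

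Ccnd3, the D cyclin of many lymphoid and erythroid cells, was nearly level between genotypes (chr17:47505051-47599688). Ccnd3 was at 97.8, 89.5, 75.6, 92.7 and 93.3 CPM in CM mice 1 to 5, and at 102, 88.1, 75.2, 92.5 and 87.6 CPM in CM/miR-126Δ/Δ mice 1 to 5. Mouse 3 had the lowest value of either genotype, and same-numbered mice lay close together. The means were 89.8 ± 8.48 and 89.2 ± 9.82 CPM (SD, n = 5 each). The log2 difference was -0.01 (SE 0.0828, fold interval 0.878 to 1.12; edgeR adjusted p = 0.978; exact permutation p = 0.865), and the block narrowed the fold interval to 0.921 to 1.07.

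The span of each of the 3 D cyclins, introns included, overlaps that of another gene on the opposite strand. The overlap was 818 bases for Ccnd1 with LTO1 (18.3 CPM), 1660 bases for Ccnd2 with 9330179D12Rik (0.375 CPM) and 358 bases for Ccnd3 with Bysl (29.1 CPM). How much of it is exon in both genes was not determined. The kit marks strand, but the strand setting of the counting is not given in the sources used here, so where exons overlap, reads of a gene and its partner may not be told apart. Of the 3 only Ccnd1 had a partner with the higher CPM.

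Ccne1, the cyclin partner of CDK2 at the end of G1, was low in every mouse (chr7:38097984-38107490). Ccne1 was at 9.26, 9.45, 9.99, 8.97 and 6.80 CPM in CM mice 1 to 5, and at 7.86, 7.87, 9.23, 8.63 and 9.30 CPM in CM/miR-126Δ/Δ mice 1 to 5. CM mouse 5 was the lowest of all and CM mouse 3 the highest, so that every CM/miR-126Δ/Δ value lay inside the CM range. The means were 8.90 ± 1.23 and 8.58 ± 0.701 CPM (SD, n = 5 each), a log2 difference of -0.05 (SE 0.12, fold interval 0.807 to 1.15; edgeR adjusted p = 0.933; exact permutation p = 0.714).

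Cdk2, the kinase that cyclin E activates, averaged 101 ± 3.54 CPM in the CM group and 95.04 ± 10.3 CPM in the CM/miR-126Δ/Δ group (SD, n = 5 each; chr10:128697939-128705051). Cdk2 was at 104, 105, 96.6, 101 and 99.5 CPM in CM mice 1 to 5, and at 103, 85.2, 83.0, 106 and 98.4 CPM in CM/miR-126Δ/Δ mice 1 to 5. CM/miR-126Δ/Δ mice 2 and 3 were the lowest of all and mouse 4 the highest, so this genotype spanned the CM range on both sides. The log2 difference was -0.09 (SE 0.0698, fold interval 0.846 to 1.04; edgeR adjusted p = 0.765; exact permutation p = 0.294).

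Cdk4, a kinase partner of the D cyclins, was the member with the highest level per length (chr10:127063535-127067288). Cdk4 was at 340.2, 316, 286, 340.4 and 279 CPM in CM mice 1 to 5, and at 289, 267, 295, 297 and 297 CPM in CM/miR-126Δ/Δ mice 1 to 5. CM mice 1, 2 and 4 lay above all CM/miR-126Δ/Δ mice, and CM mice 3 and 5 lay within the other genotype's range. The means were 312 ± 29.2 and 289 ± 12.5 CPM (SD, n = 5 each), a log2 difference of -0.11 (SE 0.071, fold interval 0.833 to 1.03). Cdk4 was lower in 3 of 5 pairs (edgeR adjusted p = 0.765; exact permutation p = 0.151).

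Cdk6, the other kinase of the D cyclins and a regulator of stem cell exit from quiescence, had the most reads of the 10 members (chr5:3343893-3531005). Cdk6 was at 1984, 2066, 2046, 1995 and 2092 CPM in CM mice 1 to 5, and at 2166, 2216, 2271, 1802 and 2170.0 CPM in CM/miR-126Δ/Δ mice 1 to 5. None of the 5 CM/miR-126Δ/Δ mice fell within the narrow CM range: 4 lay above it and mouse 4 below it. The means were 2037 ± 46.3 and 2125 ± 186 CPM (SD, n = 5 each), a log2 difference of 0.06 (SE 0.0987, fold interval 0.901 to 1.21; edgeR adjusted p = 0.900; exact permutation p = 0.389). Cdk6 was higher in 4 of 5 pairs, and without CM/miR-126Δ/Δ mouse 4 the log2 difference was 0.13.

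Among the inhibitors, Cdkn1b gave the most even values in CM mice (p27; chr6:134920401-134925525). Cdkn1b was at 67.3, 67.1, 66.8, 69.6 and 64.9 CPM in CM mice 1 to 5, and at 66.7, 60.7, 60.3, 75.4 and 57.6 CPM in CM/miR-126Δ/Δ mice 1 to 5. CM/miR-126Δ/Δ mouse 4 was the highest of all 10 and mice 2, 3 and 5 of that genotype the 3 lowest, so only 1 of its mice fell within the CM range. The means were 67.2 ± 1.67 and 64.1 ± 7.12 CPM (SD, n = 5 each), a log2 difference of -0.07 (SE 0.0686, fold interval 0.863 to 1.06; edgeR adjusted p = 0.811; exact permutation p = 0.349).

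Cdkn1c, the p57 gene whose product is a mark of quiescent stem cells, was the scarcest member, with 43 to 156 reads per library (chr7:143458339-143461050). Cdkn1c was at 4.33, 4.33, 1.76, 4.70 and 5.15 CPM in CM mice 1 to 5, and at 5.64, 3.96, 3.57, 5.15 and 6.42 CPM in CM/miR-126Δ/Δ mice 1 to 5. CM mouse 3 was far below the rest, and the 2 highest values came from CM/miR-126Δ/Δ mice 5 and 1. The means were 4.05 ± 1.33 and 4.95 ± 1.18 CPM (SD, n = 5 each), a log2 difference of 0.28 (SE 0.249, fold interval 0.84 to 1.76; edgeR adjusted p = 0.765; exact permutation p = 0.373). Cdkn1c was higher in 4 of 5 pairs, and with the block the log2 difference was 0.32 (edgeR adjusted p = 0.620; exact paired permutation p = 0.125, where 0.0625 is the smallest p possible). Without CM mouse 3 the genotype-only difference was 0.11.

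Cdkn2c, the INK4 inhibitor p18, lay between p27 and p57 in level (chr4:109660876-109666756). Cdkn2c was at 31.2, 34.99, 36.7, 44.3 and 36.2 CPM in CM mice 1 to 5, and at 42.1, 39.4, 33.5, 43.4 and 34.7 CPM in CM/miR-126Δ/Δ mice 1 to 5. Mouse 4 was the highest of either genotype, and every CM/miR-126Δ/Δ mouse fell within the CM range. The means were 36.7 ± 4.78 and 38.6 ± 4.36 CPM (SD, n = 5 each), a log2 difference of 0.08 (SE 0.0986, fold interval 0.91 to 1.22; edgeR adjusted p = 0.872; exact permutation p = 0.500).

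**Figure D3:**
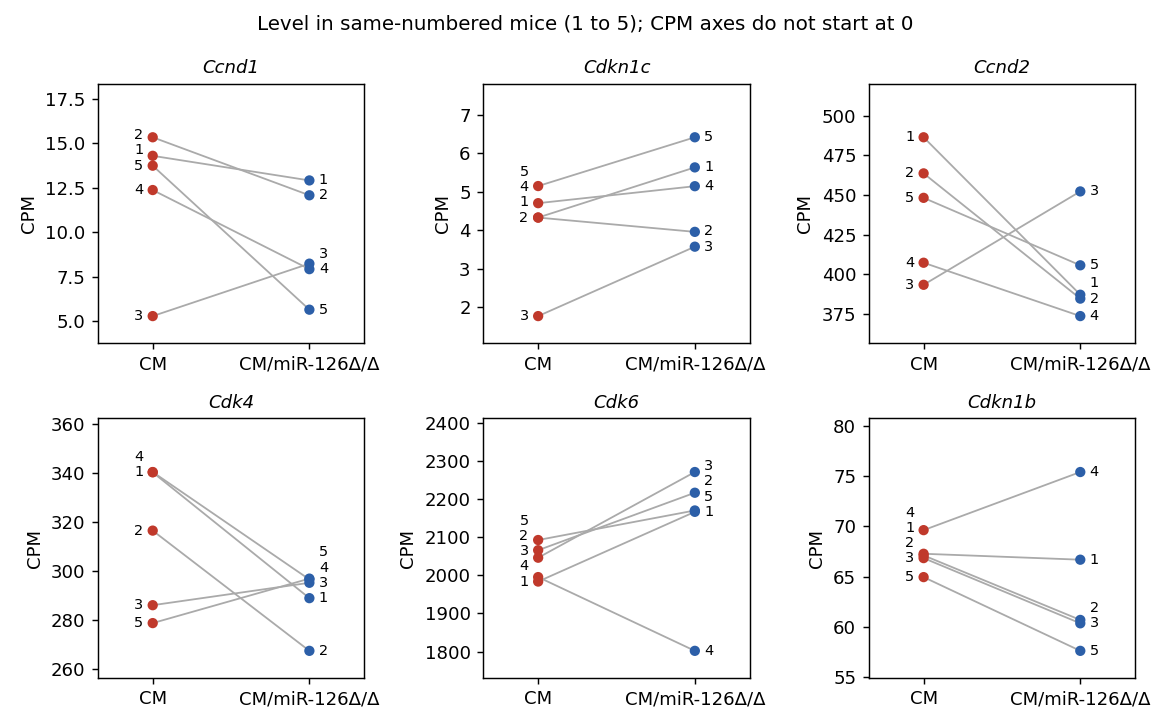
CPM of 6 members in each mouse, with lines joining same-numbered CM (red) and CM/miR-126Δ/Δ (blue) mice and numbers giving the mouse. The vertical axes do not start at 0. CM mouse 3 is lowest for Ccnd1 (5.28 CPM) and Cdkn1c (1.76 CPM), and CM/miR-126Δ/Δ mouse 4 is lowest for Cdk6 (1802 CPM) and highest for Cdkn1b (75.4 CPM).

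Single mice stood at the extremes of several members. CM/miR-126Δ/Δ mouse 4 had the lowest Cdk6 and Ccnd2 of the 10 mice and the highest Cdk2 and Cdkn1b. CM/miR-126Δ/Δ mouse 3 had the highest Cdk6 and the lowest Cdk2 and Ccnd3. CM mouse 3 had the lowest Ccnd1 and Cdkn1c. The coefficient of variation between mice of the same genotype (root mean square over both genotypes) was 32.7% for Ccnd1 and 28.6% for Cdkn1c, higher than for 93.1% and 91.3% of the genes averaging at least 1 RPKM. Counting error alone would give 6.4% and 9.72%. The other 8 members varied by 6.38% (Cdk6) to 12.2% (Cdkn2c), higher than for 18.1% and 66.1% of those genes, whose median was 9.66%.

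Single mice moved most of these small differences by more than 1.5 times. Leaving out 1 mouse took the log2 difference of Cdk2 from -0.12 (without CM/miR-126Δ/Δ mouse 4) to -0.05 (without CM/miR-126Δ/Δ mouse 3), that of Cdk4 from -0.14 (without CM mouse 5) to -0.07 (without CM mouse 4, and likewise without CM mouse 1) and that of Cdk6 from 0.04 (without CM/miR-126Δ/Δ mouse 3) to 0.13 (without CM/miR-126Δ/Δ mouse 4). Among the inhibitors, Cdkn1b ran from -0.12 (without CM/miR-126Δ/Δ mouse 4) to -0.03 (without CM/miR-126Δ/Δ mouse 5), Cdkn2c from 0.03 (without CM mouse 1) to 0.16 (without CM mouse 4) and Cdkn1c from 0.11 (without CM mouse 3) to 0.40 (without CM mouse 5). Ccnd2 ran from -0.18 (without CM/miR-126Δ/Δ mouse 3) to -0.08 (without CM mouse 1). These 7 members kept their direction in each of the 10 fits, as did Ccnd1, while Ccnd3 and Ccne1 did not.

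The D cyclin pool was made up almost wholly of Ccnd2 and Ccnd3. Ccnd2 held 64.0% ± 1.76 of the summed D cyclin RPKM in CM and 62.3% ± 4.18 in CM/miR-126Δ/Δ mice, Ccnd3 held 33.4% ± 1.48 and 35.5% ± 3.84, and Ccnd1 2.65% ± 0.747 and 2.21% ± 0.699 (SD, n = 5 each). Ccnd2 led in every mouse, with shares from 57.9% to 68.8%. The sum was 119 ± 10.8 RPKM in CM and 111 ± 3.40 RPKM in CM/miR-126Δ/Δ mice. These shares and sums are descriptions and were not tested.

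Cdk4 and Cdk6 stood close to parity. Cdk4 made up 55.4% ± 2.82 of their summed RPKM in CM and 52.5% ± 2.86 in CM/miR-126Δ/Δ mice (SD, n = 5 each), and only CM/miR-126Δ/Δ mouse 2, at 49.5%, had more Cdk6 than Cdk4. The sum of the 2 kinases was 397 ± 17.2 and 388 ± 15.5 RPKM. In every mouse it exceeded the D cyclin sum, which ran from 0.272 to 0.324 of it.

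Cdkn1b led the 3 inhibitors in every mouse. It held 60.4% ± 2.61 of their summed RPKM in CM and 57.5% ± 1.80 in CM/miR-126Δ/Δ mice, Cdkn2c held 35.1% ± 2.63 and 37.0% ± 1.46, and Cdkn1c 4.50% ± 1.45 and 5.51% ± 1.38 (SD, n = 5 each). The sums were nearly equal, at 46.3 ± 2.74 and 46.4 ± 4.83 RPKM.

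**Figure D4:**
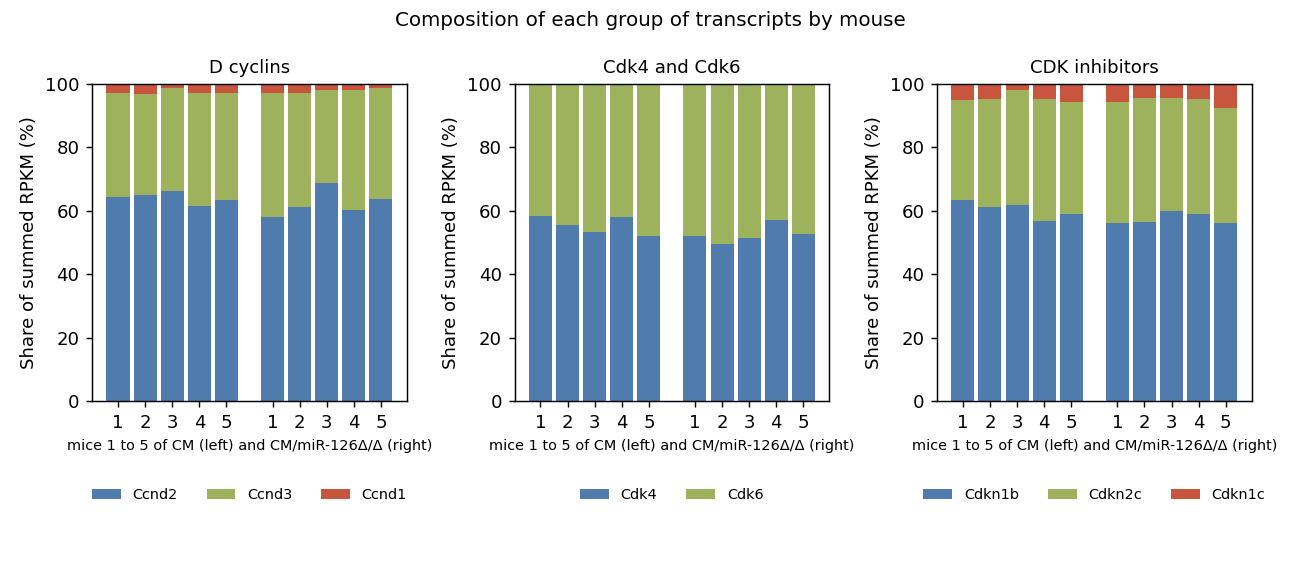
Share of summed RPKM (percent, vertical axis) of each D cyclin, of Cdk4 and Cdk6, and of each inhibitor, 1 bar per mouse with CM on the left and CM/miR-126Δ/Δ on the right of each panel. Ccnd2 and Cdkn1b take the largest part of their groups in all 10 bars, and Cdk4 takes between 49.5% and 58.2%.

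Promoters were read for the 7 members found in the promoter set used here, which was matched to RefSeq. They gave 9 windows from 250 bases before to 50 bases after the start (GRCm38.p6). Ccnd1, Ccnd2 and Cdkn1c had no entry in that set, so their promoters were not read. Motifs were sought on both strands: CACGTG, the E-box that MYC-MAX dimers are known to bind, which reads the same on either strand and was counted once, and TTTCCCGC and TTTGGCGC, which are forms of the E2F site. CACGTG was in 7.15% of the 32851 mouse promoters of that length, TTTCCCGC in 1.07% and TTTGGCGC in 0.514%.

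Cdk4, the most abundant member per length, held 4 copies of CACGTG, and 8 of the 32851 promoters held 4 or more. Cdk6 and Cdkn2c held 1 copy each. The stretch of the Cdk4 promoter with the 4 copies in capitals is at chr10:127063351-127063541 on the plus strand.
Cdk4 promoter: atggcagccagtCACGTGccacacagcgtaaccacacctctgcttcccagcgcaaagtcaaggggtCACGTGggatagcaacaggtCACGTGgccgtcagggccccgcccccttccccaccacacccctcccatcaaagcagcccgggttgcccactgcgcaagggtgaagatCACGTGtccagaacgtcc
Cdk2 was the only one of the 7 with TTTCCCGC, read as GCGGGAAA (capitals) on the strand of the gene at chr10:128705157-128705218, minus strand.
Cdk2 promoter: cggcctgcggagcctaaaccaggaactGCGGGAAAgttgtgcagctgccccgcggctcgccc
No window of the 7 held TTTGGCGC. A match describes the letters only, and no binding was measured here. Myc itself averaged 479 CPM in the CM group and 424 CPM in the CM/miR-126Δ/Δ group, a log2 difference of -0.17 that did not pass the test (edgeR adjusted p = 0.765). Leaving out 1 mouse took it from -0.29 (without CM/miR-126Δ/Δ mouse 3) to -0.10 (without CM/miR-126Δ/Δ mouse 4). The unadjusted edgeR p was under 0.05 in 1 of 10 such fits.

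Genes around this machinery were read from 7 lists of 78 genes in all, of which 75 had a mean of at least 1 RPKM in either genotype. In the genotype-only edgeR fit 0 genes were higher and 3 lower at an unadjusted p under 0.05, or 3.85% of the 78 against 6.61% of all genes, and 0 passed after adjustment. With the replicate block 1 was higher and 5 lower, or 7.69% against 8.89%. Of the 75 genes, 48 were lower on average in CM/miR-126Δ/Δ mice, with a median log2 difference of -0.04, where 57.5% of all genes with at least 1 RPKM were lower.

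The 3 genes lower at an unadjusted p under 0.05 were Cdc37, the co-chaperone that loads kinases such as CDK4 onto HSP90 (-0.14), E2f4, an E2F that acts mainly as a repressor in quiescent cells (-0.11), and E2f6, another repressor E2F (-0.15), as log2 differences from edgeR, each with an adjusted p of 0.746 or more. Cdc37 ranged from 183 to 209.8 CPM in the CM group and from 169 to 190.2 CPM in the CM/miR-126Δ/Δ group, so the genotypes overlapped. E2f4 and E2f6 were lower in 5 of 5 pairs. With 1 mouse left out, Cdc37 stayed under 0.05 in 4 of 10 fits, E2f6 in 3 and E2f4 in 1.

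The block added 4 genes at an unadjusted p under 0.05. Pcna, the sliding clamp of DNA polymerase, was lower in 5 of 5 pairs (log2 difference -0.16, edgeR adjusted p = 0.371), as was Rbx1, a subunit of cullin ubiquitin ligases (-0.17). Mycn was higher in 4 of 5 pairs (0.19). Its genotype-only difference of 0.16 ran from 0.04 (without CM mouse 3) to 0.32 (without CM mouse 1). Cdkn1a, the p53 target p21 and the third CIP/KIP inhibitor, was lower in 4 of 5 pairs (-0.60). Its CM values were 13.7, 35.98, 9.91, 13.6 and 17.9 CPM and its CM/miR-126Δ/Δ values 12.3, 10.7, 7.31, 19.9 and 7.82 CPM, with CM mouse 2 far above all others, and without that mouse the genotype-only difference went from -0.65 to -0.25. None of the 4 passed after adjustment, and E2f4 was no longer under 0.05 with the block.

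Directions differed from list to list. All 11 genes of origin licensing and replication, the Mcm2 to Mcm7 helicase subunits among them, were lower on average, by log2 differences of -0.15 (Pcna) to -0.03 (Cdc45) with a median of -0.08. Without CM mouse 1, which had the highest summed level of the list (2362 CPM against 1960 to 2260 CPM in the other 9), the median was -0.03 and 9 of 11 were lower. Of the 12 genes of G2 and mitosis 9 were higher, with a median of 0.05 and Mki67, the proliferation antigen, at 0.11. The summed level of the list was highest in CM/miR-126Δ/Δ mice 1 and 2, at 2910 and 2962 CPM, while mice 3 to 5 of that genotype, at 2464, 2359 and 2508 CPM, lay below 4 of the 5 CM mice (2538 to 2616 CPM, with CM mouse 1 at 2334 CPM). Without CM/miR-126Δ/Δ mouse 1 the list had 6 higher and 6 lower, and without mouse 2 Mki67 was at 0.05. Genes of 1 list come from the same mice and can vary together, so these counts are not independent observations. The RB, E2F and DP list had 5 higher and 8 lower, the list of CDK activation and turnover 6 and 13, and the upstream inputs 4 and 7. Without CM mouse 1 or CM mouse 3 the RB, E2F and DP list had 7 higher and 6 lower. Without CM/miR-126Δ/Δ mouse 4 the inputs had 7 higher and 4 lower.

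The most abundant gene of each list by RPKM was Ccna2, Cdkn2d, Hsp90ab1, E2f4, Mcm6, Top2a and Myc. Cdkn2d, the INK4 inhibitor p19, averaged 27.1 CPM in the CM group and 26.1 CPM in the CM/miR-126Δ/Δ group. Ccna1, Cdkn2a and Cdkn2b reached at most 2 reads in any library, which is under the limit of 3, and no fold is given for them. Among INK4 transcripts, LSK cells of both genotypes held Cdkn2c and Cdkn2d at detectable levels.

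**Figure D5:**
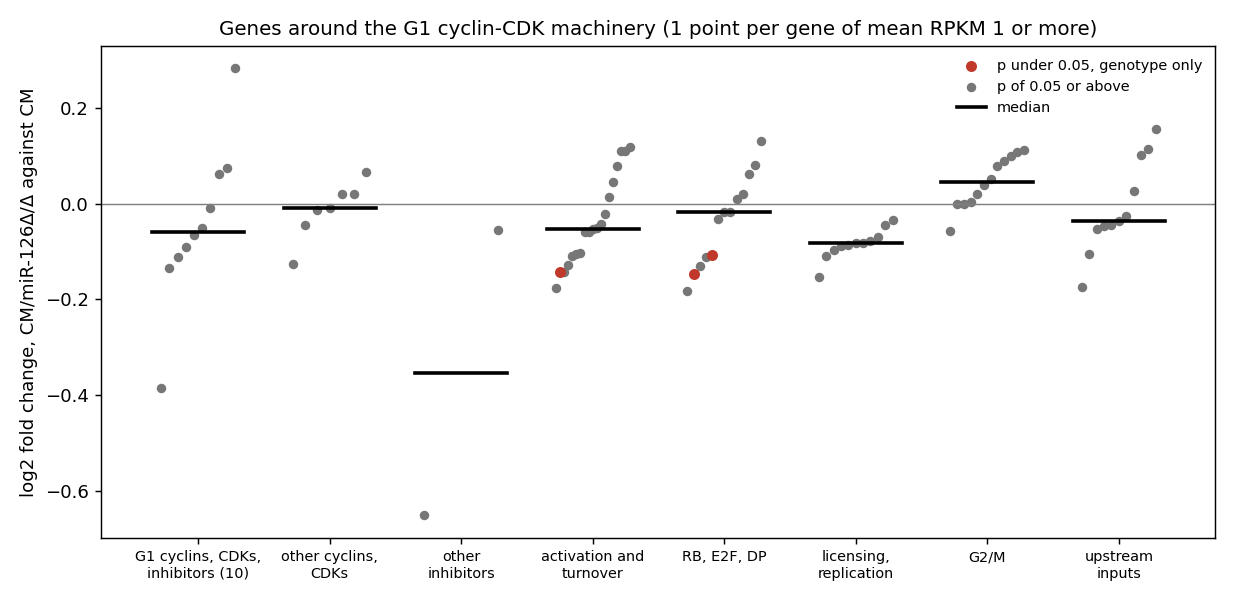
Log2 fold change, CM/miR-126Δ/Δ against CM (vertical axis), of the 10 members and of the 75 further genes with a mean of at least 1 RPKM, 1 point per gene, with the list median as a black line and genes at an unadjusted edgeR p under 0.05 in red. Only 3 points are red (Cdc37, E2f4 and E2f6), all 11 replication genes lie under 0, and 9 of the 12 G2/M genes lie above it.

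Markers of the cells in the sort were read beside these results. The 7 stem cell markers summed to 888 ± 95.3 CPM in the CM group and 1042 ± 124 CPM in the CM/miR-126Δ/Δ group (SD, n = 5 each), of which Hlf, a transcription factor of stem cells, was the most abundant. Hlf ranged from 526 to 664 CPM in the CM group and from 601 to 816 CPM in the CM/miR-126Δ/Δ group and was higher in 5 of 5 pairs (edgeR log2 difference 0.31, unadjusted p under 0.05, adjusted p = 0.661). Mecom, another stem cell factor, was also higher in 5 of 5 pairs (0.24, edgeR unadjusted p under 0.05, adjusted p = 0.748). With 1 mouse left out, Hlf stayed under 0.05 in 10 of 10 fits and Mecom in 5. On average 5 of the 7 were higher and 2 lower, and none was at 0. Without CM mouse 1, CM mouse 3 or CM/miR-126Δ/Δ mouse 5, 3 were higher and 4 lower. Without CM/miR-126Δ/Δ mouse 3 all 7 were higher. The part of the stem cell marker difference in the values of Cdkn1c, whose product marks quiescent stem cells, was not tested. In sorted bulk RNA, fewer cells of a type and less RNA per cell cannot be told apart.

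The 8 granulocyte and monocyte markers summed to 2576 ± 621 and 2589 ± 928 CPM (SD, n = 5 each), most of it Mpo, which early progenitors also transcribe. CM/miR-126Δ/Δ mouse 3, with 4041 CPM, and CM mouse 3, with 3463 CPM, had the highest sums, and these were the 2 mice with the lowest Ccnd3 and Cdkn1c. Of the 8, 5 were higher and 3 lower on average in CM/miR-126Δ/Δ mice in the genotype-only fit. Without CM/miR-126Δ/Δ mouse 4, 2 were higher and 6 lower. S100a8 and S100a9 had log2 differences of 0.92 and 0.93 with all mice, and 0.35 for each with the block. The differences were -1.73 and -1.82 without that mouse, and 2.06 and 2.12 without CM mouse 5. Elane, a granule protease of promyelocytes, had a log2 difference of 0.28, and 0.05 without CM mouse 2. None of the 3 had an unadjusted p under 0.05 in any of these fits. Itgam was lower in 4 of 5 pairs (edgeR log2 difference -0.35, unadjusted p under 0.05 in both fits, adjusted p = 0.746), and without CM mouse 3 the difference was -0.14, with an adjusted p of 0.677. Csf1r, the receptor of monocytes and macrophages, was lower in 5 of 5 pairs (with the block -0.25, edgeR unadjusted p under 0.05, adjusted p = 0.278). With genotype alone Csf1r was at -0.22 (edgeR adjusted p = 0.812). It then ran from -0.45 (without CM/miR-126Δ/Δ mouse 3) to -0.06 (without CM mouse 3).

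The neutrophil genes of the list were highest in other mice. Ly6g, which marks mature neutrophils, was at 0.831 CPM in CM/miR-126Δ/Δ mouse 4, at 0.33 CPM in CM mouse 5 and at no more than 0.0819 CPM in the other 8, under the limit of 3 counts, so no fold is given. The first of these 2 also led in S100a8 and S100a9. It had the highest Cd3e and Cd8a (T cells) and Pax5 (B cells), at 2.61, 1.66 and 4.36 CPM. The other T and B cell markers of the lists were also highest in it, except Cd4, Cd79b and Ms4a1. Cd4 was at 3.80 CPM there and highest in CM mouse 3, at 8.84 CPM. The summed T cell markers were highest in CM mouse 3 (12.7 against 10.7 CPM). The summed B cell markers were highest in CM mouse 4 (34.4 against 33.7 CPM). CM/miR-126Δ/Δ mouse 4 is the mouse at the extreme for Cdk6, Ccnd2, Cdk2 and Cdkn1b. The part of these cells in the values of either mouse 3 or of CM/miR-126Δ/Δ mouse 4 was not tested.

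Genes that define other lineages differed in level. The 5 T cell markers summed to 7.96 ± 2.87 and 7.34 ± 1.99 CPM and 5 B cell markers to 29.65 ± 3.88 and 26.96 ± 4.11 CPM, the latter mainly Cd79b. The 7 erythroid markers summed to 46.4 ± 19.2 and 43.6 ± 8.20 CPM, led by Gata1, and 2 of them, the globin genes Hbb-bt and Hba-a1, had 0 counts in every library. The 5 megakaryocyte markers summed to 182 ± 27 and 154 ± 31.1 CPM, led by Itga2b, the 5 mast cell and basophil markers to 226 ± 58.2 and 202 ± 47.0 CPM, led by Cpa3, and the 5 endothelial markers to 274 ± 29.5 and 265 ± 25.1 CPM, led by Pecam1, with Cdh5 at 0.850 and 0.660 CPM. In the genotype-only fit 3 megakaryocyte markers were higher on average and 2 lower, while all 5 T cell markers were lower. Of these 5, Cd4 was at -0.01, and Cd3d, Cd3e, Cd3g and Cd8a had 0 or 1 reads in some libraries, under the limit of 3. With the block 1 T cell marker was higher, without CM mouse 3 there were 2, and with RNA concentration as a covariate 4. Of the endothelial markers 1 (Vwf, 0.30) was higher and 4 lower. Of the 5 B cell markers 1 (Ms4a1, 0.87) was higher and 4 lower. Without CM/miR-126Δ/Δ mouse 2 all 5 megakaryocyte markers were lower and Vwf was at 0.08. Ms4a1 had 0 counts in CM/miR-126Δ/Δ mouse 3, under the limit of 3, and ran from 0.57 to 1.18 with 1 mouse left out. With the block Itga2b, Kdr of the endothelial list and Vpreb1 of the B cell list were lower at an unadjusted p under 0.05 (edgeR log2 differences -0.27, -0.51 and -0.94), the first 2 in 5 of 5 pairs, and none passed after adjustment. With genotype alone they were at -0.26, -0.51 and -0.67. Leaving out 1 mouse then gave -0.32 to -0.16 for Itga2b, -0.68 to -0.38 for Kdr and -1.60 to -0.39 for Vpreb1. Vpreb1 had 1 read in CM/miR-126Δ/Δ mouse 3, under the limit of 3.

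For each member the genes with the most similar profile were sought among 11681 genes, by Pearson's r of log2 CPM over the 10 mice after the genotype means were taken out. The r of the closest gene was between 0.907 (Cluap1 for Ccne1) and 0.993 (Heg1 for Cdk6). Ccnd1 was closest to Slain1 (r = 0.959), Ccnd2 to Ddx54 (0.948), Ccnd3 to Mpzl1 (0.984), Cdk2 to Csad (0.958) and Cdk4 to Mrpl2 (0.964). Cdkn1b was closest to Ube2b (0.969) and Cdkn1c to Tmem176b (0.958). By ranks, Cdkn1c and Tmem176b gave a Spearman rho of 0.745, and CM mouse 3 was far below the rest for Cdkn1c. Cdkn2c was closest to Cdca3 (0.975), followed by Cdk1 (0.957) and Kif22 (0.950). The values share the same 10 libraries and are a description of them. Each closest gene was picked as the highest of 11681 values, and the r that chance gives for such a pick was not determined.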

How the data were processed

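LSK RNA was sequenced from 5 CM and 5 CM/miR-126Δ/Δ mice, grouped by the labels. The members and gene lists were chosen with earlier results of these data known. Per the submitters' processing notes, the authors used bcl2fastq 2.18.0.12, TopHat2, mm10 (GRCm38) and HTSeq 0.6.1p1, and they deposited whole-number counts per RefSeq gene without normalization. A second deposited table, each count divided by 1 constant per library, was not used.

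The 18747 genes with at least 1 count entered edgeR 4.0.16 under R 4.3.3 (TMM scaling, glmQLFit in its older form and glmQLFTest, two-sided, genotype alone), adjusted by Benjamini-Hochberg, after the fit had been tested on simulated data. CPM and RPKM (CPM per kilobase of exon) used TMM-scaled library sizes and the exon lengths in the file. DESeq2 1.42.0, other scalings and filters, RNA concentration as a covariate and each mouse left out were alternatives. Permutation tests took all splits of the mice (smallest p 0.00794) or all 32 sign changes of pairs, in Python 3.11.15 with scipy 1.17.1.

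Replicate numbers were taken to pair the mice, since same-numbered mice deviated together from their group means (r of 0.15 to 0.469 over 12275 genes, 5 of 5 pairs over 0.1). Of the 20 differently numbered pairs 6 were also over 0.1, the highest being CM mouse 5 with CM/miR-126Δ/Δ mouse 4 at 0.516, and 5 of 10 mice were closest to their own number, so these values alone do not establish the pairing. The labels do not say what a number stands for, and p-values measure the spread between these mice. The limit of 3 counts and the counting errors given as percentages cover counting error only, as reads carry no molecular identifiers, whereas the 95% intervals come from the edgeR fit and include the spread between mice.

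All 10 members are named. Of the 78 other pathway genes, those with an unadjusted p under 0.05 in either fit, those that separate the genotypes (none did) and the most abundant of each list are named. Further genes, such as Myc, Mki67, Cdc45 and the cell type markers, were named after their values were seen. Untranslated regions came from GENCODE M1, which follows an older build, by gene symbol and sequence only. Of the cell type markers, 1 gene was left out and is not reported here.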

Additional observations from a re-analysis of the deposited data

Results flagged for a closer look

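A single mouse lay far from the other 4 of its genotype in 6 of the 42 sets of 5 values examined, where chance alone gives about 2.1. The sets share genes and mice and are not independent. Cdk4 was at 267.5 CPM in CM/miR-126Δ/Δ mouse 2, with the nearest mouse at 288.9 CPM. Cdk6 was at 1802 CPM in CM/miR-126Δ/Δ mouse 4, with the nearest at 2166 CPM. Cdkn1c was at 1.76 CPM (43 reads) in CM mouse 3, with the nearest at 4.329 CPM.

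The other 3 concern shares and sums. In CM mouse 3 the share of Ccnd1 in D cyclin RPKM was 1.351%, with the nearest at 2.836%, and the share of Cdkn1c in the 3 inhibitors was 2.014%, with the nearest at 4.747%. In CM mouse 4 the sum of the 3 inhibitors was 51.03 RPKM, with the nearest at 45.72 RPKM. No cause was tested for any of the 6.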

How the results depend on the processing

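Of 210 log2 differences of members under alternatives, 197 kept their direction and their side of an unadjusted p of 0.05, 10 turned and 3 passed it. The number of members under 0.05 was 0, and 1 with total counts alone (Ccnd2, whose exact permutation p went from 0.0952 to 0.0397); with 1 mouse left out it was 0 to 1 (Ccnd1 without CM mouse 3, -0.56, and Ccnd2 without CM/miR-126Δ/Δ mouse 3, -0.18). The 10 that turned were near 0. Ccnd3 was 5.40e-05 with RLE factors, 4.68e-05 with DESeq2, 0.0091 with filterByExpr, 0.011 among genes averaging at least 1 RPKM and 0.072 with RNA concentration as a covariate, and -0.053 to 0.046 with 1 mouse left out. Ccne1 was -0.12 to 0.0052 with 1 mouse left out, the last without CM mouse 3. RNA concentration as a covariate also took Ccne1 from -0.05 to -0.19, Cdk6 from 0.06 to 0.0049, Cdk2 from -0.09 to -0.03, Cdkn1b from -0.07 to -0.02, Cdkn1c from 0.28 to 0.45 and Ccnd1 from -0.38 to -0.24.

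Over all genes, 2 had an adjusted p under 0.05, against 1 with total counts alone, 45 with DESeq2, 4 with filterByExpr, 4 among genes averaging at least 1 RPKM and 0 with the covariate (751 at an unadjusted p under 0.05, against 1239), and 1 to 7 with 1 mouse left out. The study's cutoffs took 54 genes, 25 with the covariate and 33 to 128 with 1 mouse left out. Unadjusted p under 0.05 was met by 770 to 1773 genes with 1 mouse left out, and by 3 pathway genes, 1 with the covariate and 0 to 9 with 1 mouse left out. With the replicate block, 20 genes had an adjusted p under 0.05, 115 passed the study's cutoffs and 6 pathway genes had p under 0.05, and the block changed the call of no member. RNA concentration went partly with genotype, so the covariate fit cannot fully separate it from genotype. The causes of these shifts were not tested. Depth limits Cdkn1c most, at 43 reads in CM mouse 3.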
